A study of Homo sapiens with 4 samples.

Results

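The human genes named ZNF followed by a number encode zinc finger proteins, and 115 of them were expressed in HGC-27 cells treated with or without the peptide GLUP. The members were chosen by name and by level: they are the protein-coding genes whose symbol was ZNF, a number and at most 1 further letter, and whose mean over the 4 RNA-seq libraries was at least 1 FPKM (fragments scaled by transcript length and by the library's total, so a level per length). The table held 508 protein-coding ZNF genes among 62443 genes, of which 246 lay on chromosome 19 and 262 elsewhere. The 115 members were 22.6% of these 508 genes, with 52 on chromosome 19 (21.1% of its ZNF genes) and 63 on other chromosomes (24.0%). Of the remaining ZNF genes, 347 had a mean above 0 but under 1 FPKM and 46 were listed at 0 in every library.

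The study asked what GLUP, a cyclic peptide built from the part of the cofactor VGLL4 that binds the transcription factor TEAD4, does to transcription in gastric cancer cells. HGC-27 is an established human gastric cancer cell line, and all libraries came from this 1 line. There were 2 control libraries and 2 libraries of cells given GLUP at 10 μg/ml. The length of the treatment is uncertain, since both 12 h and 48 h appear among the descriptions of the experiment. The methods describe the control as the peptide's buffer, whereas the labels record no treatment.

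Most ZNF proteins carry zinc fingers of the C2H2 kind, loops in which 2 cysteines and 2 histidines hold a zinc ion, repeated in a row so that each protein reads its own stretch of DNA. Many of the largest group also carry a KRAB domain, which binds the corepressor TRIM28 (KAP1) and through it brings in histone methylation and HP1 proteins, and which is best known for silencing transposable elements. KRAB zinc finger genes arose by repeated local duplication, and much of the family stands in clusters on chromosome 19.

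The coding sequences of the members show this build. First fingers with the linker that follows are shown for ZNF146 and ZNF514, which were lower with GLUP on and off chromosome 19, and ZNF358, which was higher, read on the coding strand of GRCh37 with the codons of the 2 cysteines and 2 histidines in capitals. That of ZNF146 lies at chr19:36727394-36727477 (plus strand), that of ZNF514 at chr2:95815531-95815614 (minus strand) and that of ZNF358 at chr19:7584585-7584668 (plus strand).
ZNF146: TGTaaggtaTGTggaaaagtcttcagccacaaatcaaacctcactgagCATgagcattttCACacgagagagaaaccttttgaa
ZNF514: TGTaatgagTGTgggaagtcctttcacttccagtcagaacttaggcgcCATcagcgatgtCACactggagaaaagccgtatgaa
ZNF358: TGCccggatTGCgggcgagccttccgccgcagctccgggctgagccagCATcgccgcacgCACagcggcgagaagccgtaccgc

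The core of the KRAB A box, the stretch that contacts TRIM28, is shown for the 2 members with a KRAB domain that had the lowest log2 fold changes, again from coding exons on the minus strand of GRCh37, with the last pair of codons in capitals. It lies at chr19:53311336-53311374 in ZNF28 and at chr19:37647207-37647245 in ZNF585A.
ZNF28: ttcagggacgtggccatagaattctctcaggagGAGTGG
ZNF585A: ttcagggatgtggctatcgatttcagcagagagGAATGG

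A complete coding sequence was found for 113 of the 115 members. A pattern for the KRAB A box core matched its translation in 59 (40 on chromosome 19 and 19 elsewhere) and not in 54 (11 and 43). Only the longest complete coding sequence of each gene was searched, so a gene without a match may still carry a KRAB domain. The translation held 10 or more C2H2 fingers in 55 members, 1 to 9 in 56, and none that the pattern found in ZNF330 and ZNF595. The coding sequence used for ZNF595 was short, so other transcripts of this gene may hold fingers.

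The members were expressed at low levels. Their median of mean FPKM was 1.86, against 4.06 for the 7588 genes tested, and 66 members had a mean between 1 and 2 FPKM, 36 between 2 and 5, 6 between 5 and 10, and 7 of 10 or more. Of the members, 57 reached 1 FPKM in every library. A further 14 were under 1 FPKM in both GLUP libraries and at or above 1 in both control libraries, and 1 was the reverse. These 14 passed the minimum through the control group alone. Other members with a GLUP mean under 1 FPKM, such as ZNF790 (0.761), ZNF138 (0.822) and ZNF568 (0.912), also passed only through the control group. They are not counted among the 14. Just above the minimum lay ZNF689 (1.01 FPKM), ZNF770 (1.02) and ZNF263 (1.02), and just below it ZNF771 (0.993), ZNF736 (0.984) and ZNF33A (0.963). None of the role genes ZNF10, ZNF91, ZNF93, ZNF148 and ZNF217 reached a mean of 1 FPKM, and ZNF91 and ZNF93, known for silencing retroelements, had means of 0.746 and 0.218 FPKM.

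The libraries were deposited as FPKM without counts, so their depth is unknown. The epithelial keratins KRT8 and KRT18 lay between 0.957 and 2.25 FPKM, EPCAM and CDH1 at most at 0.124, and 4 of 6 gastric mucosa markers were listed at 0 in every library with the others at most at 0.063, so defining markers of gastric epithelium were near or at 0. Of 6 immune, endothelial and fibroblast markers, DCN and COL1A1 were expressed, and the summed level of the list was 29.4 and 45.03 FPKM in control against 27.0 and 26.7 with GLUP. DCN made up most of it (26.5 and 41.3 FPKM in control, 20.1 and 22.3 with GLUP), and COL1A1 stood the other way (2.97 and 3.64 in control, 6.90 and 4.42 with GLUP). The summed level of the 4 epithelial markers was 2.20 and 2.65 FPKM in control against 4.55 and 3.84 with GLUP, with KRT8 and KRT18 higher in both GLUP libraries. The part of these levels in the differences below was not tested. In bulk RNA, fewer cells of a type and less RNA per cell cannot be told apart.

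ZNF genes were mostly lower with GLUP than in control cells, but not one passed the test after adjustment over all genes. The log2 fold change (GLUP over control, on the log2(FPKM + 1) scale, which understates differences of low genes) was below 0 in 100 of the 115 members (87.0%), where 66.7% of all genes tested were below 0. The median over the members was −0.44, from −1.85 to 0.88, against −0.36 over all genes, so relative to all genes the members' median was −0.09. More than 2-fold lower were 15 members, beside 16.3% of all genes, and more than 2-fold higher 0, beside 6.83%. A more than 2-fold difference with an unadjusted limma p under 0.05 was seen in 14 members on the lower side (12.2%), where 14.5% of all genes passed the same rule, and in 0 on the higher side, where 4.67% did. The members' share on the lower side was near the background. Among these 14, ZNF275, ZNF468 and ZNF562 were under 1 FPKM in both GLUP libraries and at or above 1 in both controls. ZNF138, ZNF568 and ZNF790 had GLUP means of 0.822, 0.912 and 0.761 FPKM. All of these passed the minimum through the control group alone.

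By limma with Benjamini-Hochberg adjustment, 0 members had an adjusted p under 0.05, the lowest adjusted p among them being 0.10. Without control replicate 1, where the spread comes from the GLUP libraries alone, 48 members had one (41.7%, against 53.2% of all genes), and without control replicate 2, 11 members (9.57%, against 18.7%). Without either GLUP library, 0 members did. At an unadjusted p under 0.05, 30 members were lower (26.1%, against 25.4% of all genes) and 1 was higher (against 6.37%). Over all genes, 2 (0.0264%) had an adjusted p under 0.05 and a difference of more than 2-fold, and neither was a ZNF gene. With 2 libraries against 2, an exact permutation test cannot give a two-sided p below 0.33. Since no ZNF gene passed, the genes are described by their levels.

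**Figure D1:**
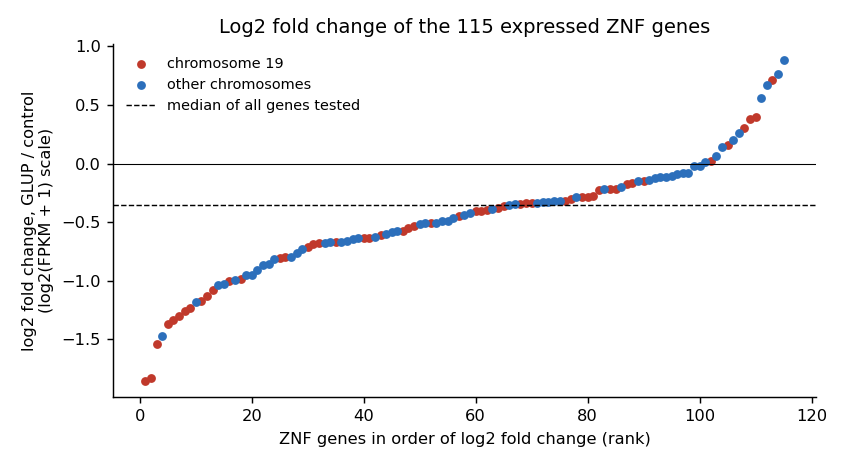
The 115 expressed ZNF genes in order of their log2 fold change (GLUP over control, log2(FPKM + 1) scale), 1 point per gene, coloured by chromosome 19 or other chromosomes, with the median of all genes tested (−0.36) as a dashed line. The points run from −1.85 to 0.88, with 100 of 115 below 0. Both colours occur along the order, but points below −1 number 11 of 52 on chromosome 19 and 4 of 63 elsewhere, beside 16.3% of all genes.

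The levels of both groups were compared library by library. In 70 members (60.9%) both GLUP libraries stood below both controls, where 49.7% of all genes showed this. Within the 5 classes of GC content described below, from lowest to highest, 27 of 41, 24 of 30, 14 of 23, 4 of 12 and 1 of 9 members did. Of all genes in these classes, 80.4%, 70.5%, 54.6%, 31.4% and 11.5% did. The 70 include the 14 members under 1 FPKM in both GLUP libraries and at or above 1 in both controls, which stand in this order by construction. Others of the 70 with a GLUP mean under 1 FPKM, such as ZNF790, also passed the minimum through the control group. A share without such genes was not computed for members or for all genes. Both stood above both controls in 5 members (4.35%), against 17.5% of all genes, and in 40 the groups overlapped. Summed over the members, FPKM was 480 and 540 in control against 324 and 327 with GLUP. The median member had 2.20 and 2.46 FPKM in control against 1.42 and 1.33 with GLUP.

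The distance of the members from all other genes was less clear. In log2 units, the median of the members minus the median of all genes was −0.80 and −0.60 in the control libraries and −0.84 and −0.85 in the GLUP libraries. The control libraries thus differed from each other by about as much as the groups did, and control replicate 1 lay next to the GLUP libraries on this measure.

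The ZNF genes with the lowest log2 fold changes had KRAB domains with the exception of ZNF146, and most lay on chromosome 19. ZNF28, a KRAB zinc finger gene with 15 fingers at chr19:53300661-53360853 (minus strand, GRCh37), stood at 5.77 and 22.8 FPKM in control against 1.79 and 3.42 with GLUP. Both GLUP libraries were lower than both control libraries, and control replicate 2 was far above the rest. The log2 fold change was −1.85 (SE 0.63, limma adjusted p = 0.125), and it was −0.95 without control replicate 2.

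ZNF146, at chr19:36705504-36729673 (plus strand), encodes a protein made almost wholly of its 10 fingers and carries no KRAB domain. Its level was 22.7 and 46.8 FPKM in control against 9.05 and 7.94 with GLUP. The groups did not overlap, and the GLUP libraries lay close together. The log2 fold change was −1.83 (SE 0.43, limma adjusted p = 0.10), from −2.33 to −1.32 when each library was left out in turn.

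ZNF585A, a KRAB gene with 21 fingers at chr19:37597636-37663643 (minus strand), had 21.9 and 42.9 FPKM in control against 9.97 and 9.83 with GLUP. Again the groups did not overlap and control replicate 2 was the highest. The log2 fold change was −1.54 (SE 0.41, limma adjusted p = 0.101). ZNF514, a KRAB gene with 7 fingers at chr2:95787832-95831413 (minus strand), showed the same order off chromosome 19, with 9.35 and 19.4 FPKM in control and 4.34 and 4.14 with GLUP, a log2 fold change of −1.47 (SE 0.41).

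ZNF682 and ZNF468 are KRAB genes on chromosome 19 with lower levels. ZNF682 had 4.15 and 5.36 FPKM in control against 0.647 and 1.97 with GLUP, and ZNF468 had 2.39 and 3.75 in control against 0.621 and 0.558 with GLUP. In both genes the groups were apart. ZNF468 was under 1 FPKM in both GLUP libraries and passed the minimum through the control group alone. Their log2 fold changes were −1.37 (SE 0.36) and −1.34 (SE 0.27).

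ZNF557 and ZNF547, KRAB genes on chromosome 19 too, rested more on control replicate 2. ZNF557 had 5.29 and 13.9 FPKM in control against 3.04 and 2.83 with GLUP, and ZNF547 had 2.34 and 7.19 in control against 1.45 and 0.951 with GLUP. Groups did not overlap in either gene. Without control replicate 2, the log2 fold change went from −1.30 to −0.68 for ZNF557 and from −1.26 to −0.61 for ZNF547. ZNF547 shares bases on the same strand with TRAPPC2B, which stood at 29.2 and 82.9 FPKM in control against 14.3 and 13.3 with GLUP, so the assignment of reads to ZNF547 is uncertain.

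**Figure D2:**
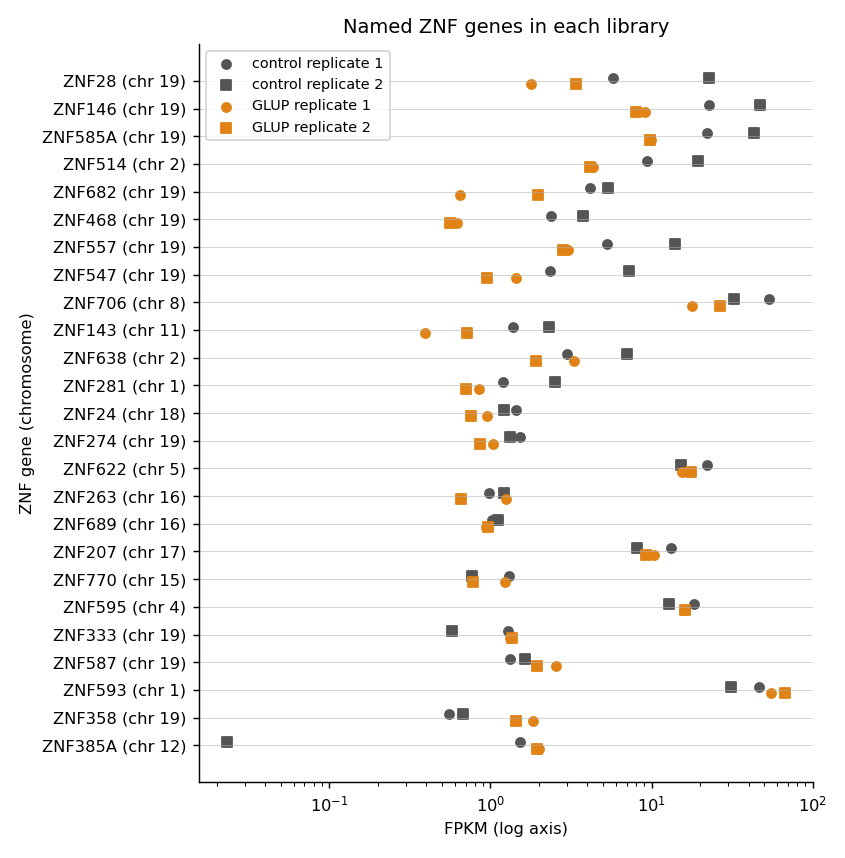
FPKM (log axis) of the 25 named ZNF genes in each of the 4 libraries, ordered by log2 fold change, with control libraries in grey and GLUP libraries in orange, circles for replicate 1 and squares for replicate 2. In the upper rows, from ZNF28 to ZNF547, both GLUP libraries lie left of both control libraries, and the reverse holds in the lowest rows, from ZNF333 to ZNF385A. The genes at both ends were chosen among members whose groups did not overlap.

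The members with the highest levels did not share a pattern. The gene with the highest mean among those that were higher with GLUP was ZNF593, at chr1:26496399-26497364, whose product takes part in ribosome biogenesis. It had 46.1 and 31.0 FPKM in control against 55.0 and 67.3 with GLUP, a log2 fold change of 0.67 (SE 0.36, limma adjusted p = 0.243). ZNF706, a small gene of the family, stood the other way, with 53.4 and 32.7 FPKM in control and 17.8 and 26.4 with GLUP (log2 fold change −0.91, SE 0.40, adjusted p = 0.180 by limma). Both genes had groups that did not overlap.

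Of the other members at 10 FPKM or more, ZNF622 (a factor of late ribosome assembly), ZNF207 (a spindle assembly factor) and ZNF595 had GLUP libraries inside the range of the control libraries. ZNF622 had 22.0 and 15.3 FPKM in control against 15.4 and 17.7 with GLUP, and ZNF207 had 13.3 and 8.16 in control against 10.4 and 9.24 with GLUP. ZNF595 had 18.4 and 12.8 FPKM in control against 16.01 and 16.2 with GLUP. Their log2 fold changes were −0.15, −0.08 and 0.07, and no difference was detectable between the groups. After centring each library on its median, ZNF622 and ZNF207 were at 0.19 and 0.26, on the other side of 0.

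A few members were higher with GLUP. The 5 with both GLUP libraries above both controls were ZNF593, ZNF385A, ZNF358, ZNF587 and ZNF333. ZNF358, at chr19:7580178-7585911 (plus strand), a gene with 9 fingers and no KRAB domain, had 0.554 and 0.672 FPKM in control against 1.85 and 1.44 with GLUP. It was the 1 member under 1 FPKM in both control libraries and above it in both GLUP libraries, and the 1 higher member with an unadjusted p under 0.05 (limma adjusted p = 0.118, log2 fold change 0.71, SE 0.23). Its transcript had a GC content of 69.2%, and after the GC correction described below its log2 fold change was 0.048.

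ZNF385A, whose product is known to bind p53, turned on 1 library. It had 1.53 and 0.0231 FPKM in control against 2.00 and 1.94 with GLUP. The log2 fold change was 0.88 (SE 0.44), and 0.23 without control replicate 2. ZNF587 (1.32 and 1.64 FPKM in control, 2.55 and 1.93 with GLUP) and ZNF333 (1.29 and 0.581 in control, 1.32 and 1.36 with GLUP) differed less, with log2 fold changes of 0.38 and 0.30.

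Among members chosen for a known role, ZNF143, an activator at the promoters of small nuclear RNA and many protein-coding genes, had 1.38 and 2.31 FPKM in control against 0.394 and 0.713 with GLUP. Its groups did not overlap, and its log2 fold change was −0.86 (SE 0.27, limma adjusted p = 0.115). ZNF274, a KRAB zinc finger protein that binds over the 3′ ends of other ZNF genes and brings the methyltransferase SETDB1 there, had 1.53 and 1.31 FPKM in control against 1.03 and 0.857 with GLUP (log2 fold change −0.32). ZNF281, a factor that binds GC-rich promoters, had 1.19 and 2.51 FPKM in control against 0.846 and 0.703 with GLUP (−0.65). ZNF24 had 1.43 and 1.21 FPKM in control against 0.953 and 0.755 with GLUP (−0.32). In these 4 genes the control and GLUP libraries were apart, and all 4 passed the minimum through the control group alone. ZNF143, ZNF281 and ZNF24 were under 1 FPKM in both GLUP libraries, and ZNF274 had a GLUP mean of 0.946 FPKM. The GLUP libraries of ZNF638, a partner of the HUSH silencing complex, at 3.32 and 1.91 FPKM, overlapped its control libraries at 2.97 and 7.08. After centring, ZNF274 and ZNF24 stood at 0.03 and 0.02.

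The control libraries differed from each other in these genes. Control replicate 2 was above control replicate 1 in 67 members (58.3%), against 46.1% of all genes. Over the 115 members, the Pearson correlation of log2(FPKM + 1) was 0.80 between the control libraries and 0.92 between the GLUP libraries, and it was 0.86 and 0.90 between control replicate 1 and the GLUP libraries. Control replicate 1 was therefore nearer to the GLUP libraries than to the other control. The order was the same over all 7588 genes tested and so not particular to the members. There it was 0.93 between the control libraries, 0.99 between the GLUP libraries, and 0.95 and 0.96 between control replicate 1 and the GLUP libraries. These are correlations across genes, which are no independent replicates.

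Measured against each control library by itself, the mean of the GLUP libraries was lower than both in 85 members (73.9%, against 56.0% of all genes), higher than both in 8 (6.96%, against 21.5%), and lower than 1 of the controls alone in 22, split as 13 against replicate 1 and 9 against replicate 2. More than 2-fold lower levels were found in 11 members against control replicate 1 (9.57%, beside 12.7% of all genes) and in 25 against control replicate 2 (21.7%, beside 23.3%). The 6 members below both by that margin (5.22%, beside 8.49%) were ZNF146, ZNF585A, ZNF682, ZNF468, ZNF44 and ZNF790, all on chromosome 19. ZNF44 and ZNF790 fall outside the rule for named genes and were picked after their values were seen. ZNF44 had 4.59 and 4.97 FPKM in control against 1.35 and 1.57 with GLUP, and ZNF790 had 2.69 and 2.87 in control against 0.404 and 1.12 with GLUP.

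The count of 14 lower members moved with single libraries. It was 25 without control replicate 1 (21.7%, against 23.0% of all genes) and 11 without control replicate 2 (9.57%, against 12.5%). Without GLUP replicate 1 it was 7 (6.09%, against 5.76%), and without GLUP replicate 2 it was 8 (6.96%, against 5.82%). The count of higher members was 4 without control replicate 1 (3.48%, against 12.9%). The members' shares on the lower side thus stayed near those of all genes. By log2 fold change alone, ZNF146, ZNF468, ZNF585A and ZNF44 stayed below −1 in each of these 4 fits. A fit without 1 library assumes that the lone library of a group varies like the other group.

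**Figure D3:**
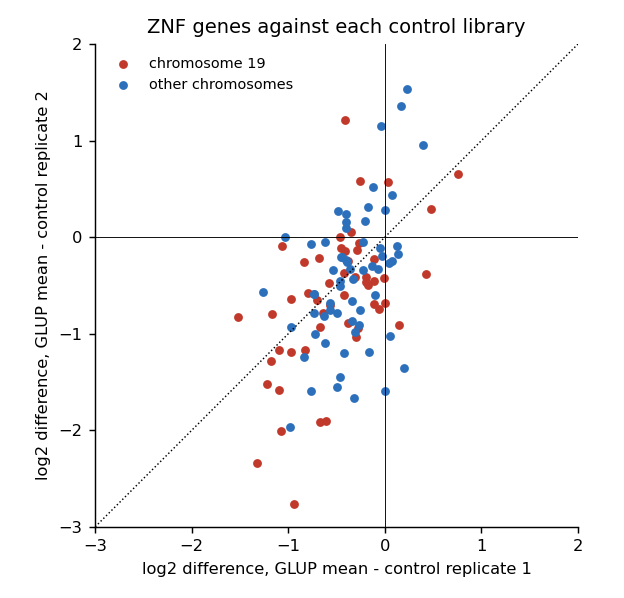
Mean log2(FPKM + 1) of the GLUP libraries minus control replicate 1 (horizontal) and minus control replicate 2 (vertical) for the 115 members, 1 point per gene, coloured by chromosome, with a dotted line where both differences are equal. Both differences are below 0 in 85 members and above 0 in 8, and more points pass −1 against replicate 2 (25) than against replicate 1 (11).

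Chromosome 19 was then compared with the rest. The median log2 fold change was −0.48 over the 52 members on chromosome 19 and −0.42 over the 63 elsewhere, a difference of −0.06. On chromosome 19, 46 of 52 members were below 0, and elsewhere 54 of 63, beside 66.7% of all genes. Both GLUP libraries were below both controls in 33 of 52 and in 37 of 63, beside 49.7% of all genes. The lower members by fold and unadjusted p were 11 of 52 on chromosome 19 (21.2%) and 3 of 63 elsewhere (4.76%), beside 14.5% of all genes.

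Library by library, the median of the chromosome 19 members minus that of the others was 0.14 and −0.13 in control and −0.10 and 0.12 with GLUP. The groups overlapped on this measure. Without control replicate 1 the difference in medians was −0.24. The summed FPKM of the chromosome 19 members was 175 and 255 in control against 100.4 and 96.0 with GLUP, and that of the others 305 and 285 in control and 224 and 231 with GLUP. The 2 control libraries were in opposite order in these sums.

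The other genes of chromosome 19 had a median fold change of the opposite sign. The 396 other tested genes there had a median log2 fold change of 0.31, with 257 above 0 and 139 below 0, and the 7077 other genes on the remaining chromosomes had a median of −0.39. In 167 of the 396 both GLUP libraries lay above both controls, against 3 of the 52 ZNF genes and 17.5% of all genes tested. The median GC content of their transcripts was 58.1%, against 41.9% for the ZNF genes of the chromosome. No test of this difference was made.

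**Figure D4:**
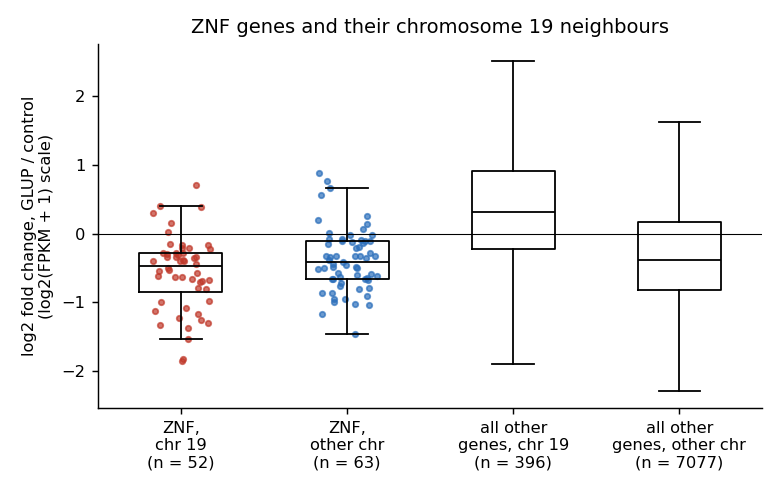
Log2 fold change (GLUP over control, log2(FPKM + 1) scale) of ZNF genes on chromosome 19, ZNF genes elsewhere, and all other tested genes on and off chromosome 19, with boxes from the lower to the upper quartile, lines at the median, whiskers to the last value within 1.5 box heights, and points for single ZNF genes. The medians are −0.48, −0.42, 0.31 and −0.39.

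Members on chromosome 19 were grouped into runs wherever neighbours were within 1000000 bases of each other on GRCh37. The longest run, chr19:36705504-37860267, held 10 members (ZNF146, ZNF566, ZNF260, ZNF567, ZNF790, ZNF345, ZNF568, ZNF585A, ZNF383 and ZNF875). All 10 were below 0, beside 66.7% of all genes, and their median log2 fold change was −0.74. In 9 both GLUP libraries lay below both controls, beside 49.7% of all genes. A run of 5 at chr19:52800422-53400946 (ZNF480, ZNF880, ZNF28, ZNF468 and ZNF320) had all 5 below 0 and a median of −0.71. The median GC content of the run of 5 fell in the lowest of the 5 GC classes described below. That of the run of 10 lay at the border of this class and the next. Among all genes, both GLUP libraries lay below both controls in 80.4% of the lowest class and 70.5% of the next. The medians of all genes in these classes were −0.78 and −0.64.

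The remaining runs had medians on both sides of that of all genes, and several held 1 or 2 members only. The 4 members at chr19:21264965-21739072 had a median of −0.59 and the 5 at chr19:11670189-12750912 one of −0.38, all of them below 0. The 6 members at chr19:9251073-9785776 had a median of −0.43 and all were below 0, and the 6 at chr19:57874845-58788861, which include ZNF547, ZNF587 and ZNF274, had a median of −0.34 with 4 below 0. ZNF506 and ZNF682, a run of 2, had a median of −0.79. The runs are given as a description.

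ZNF28 and ZNF468 share sequence as well as place. Their gene bodies overlap on the same strand, and 16.3% of the 50-base words in the coding sequence of ZNF28, and 18.3% of those in ZNF468, also occur in another zinc finger gene. Their longest shared coding run is 149 bases, shown here with the next 30 bases because reads from it cannot be assigned to 1 gene, from chr19:53304453-53304631 and chr19:53344902-53345080 (minus strand, GRCh37), with capitals where the genes differ.
ZNF28: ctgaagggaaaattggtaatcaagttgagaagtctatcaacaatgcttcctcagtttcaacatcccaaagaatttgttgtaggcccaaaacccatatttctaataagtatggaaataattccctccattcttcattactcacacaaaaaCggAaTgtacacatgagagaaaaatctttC
ZNF468: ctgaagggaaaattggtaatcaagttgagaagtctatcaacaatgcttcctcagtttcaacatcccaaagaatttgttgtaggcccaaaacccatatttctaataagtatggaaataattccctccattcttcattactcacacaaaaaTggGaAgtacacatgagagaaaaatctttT

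In 7 members more than 10% of such words were shared. ZNF585A shared 43.2%, mostly with ZNF585B (1.32 and 0.564 FPKM in control, 0.0853 and 0.704 with GLUP), and ZNF587 shared 66.6%, mostly with ZNF417. The rest were ZNF552 at 35.2%, ZNF595 at 11.2% and ZNF320 at 10.3%, with ZNF28 and ZNF468. The share of ZNF595 rests on 206 words, since the coding sequence used for it was short. How the counting split reads between such copies is not given in the sources used here, so the levels of these genes are uncertain. ZNF514 overlaps ZNF2, and ZNF593 overlaps ZNF593OS, on the opposite strand, and reads of such pairs could not be told apart if strand was not used.

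Members in which the KRAB core was matched had a lower median than those without a match. The 59 with a match had a median log2 fold change of −0.51, with 55 below 0 and 12 lower by fold and unadjusted p. The 54 without, which may include KRAB genes that the pattern missed, had a median of −0.34, with 43 below 0 and 2 lower. Of all genes, 14.5% were lower by that rule and 66.7% were below 0. On chromosome 19 the medians were −0.54 (40 with a match) and −0.34 (11 without), and elsewhere −0.46 (19 with) and −0.35 (43 without). The order was the same on and off chromosome 19. The 55 members with 10 or more fingers had a median of −0.55, and the 56 with 1 to 9 fingers −0.37. Genes with a match had a median GC content of 41.4% and those without 44.3%, and no test of the domain was made.

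Log2 fold change followed the GC content of the transcripts in members and in all genes. The members' median GC content was 42.5%, against 46.5% over all genes tested. Across the 115 members, Spearman's rho between log2 fold change and GC content was 0.41, and it was 0.44 on chromosome 19, 0.41 elsewhere and 0.58 over 7570 tested genes. The points share the same 4 libraries, and the values are a description. The 40 members under 40% GC had a median of −0.61 with 39 below 0, and the 18 at 50% or more had a median of 0.08 with 8 below 0 and 10 above 0.

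All genes were divided into 5 equal classes by GC content, and members and all genes were set side by side within each. In the class with the lowest GC content the median was −0.60 for 41 members and −0.78 for all genes, and in the next (up to 44.1%) it was −0.69 for 30 members and −0.64 for all genes. In the middle class (44.1% to 49.0%) it was −0.42 for 23 members and −0.41 for all genes, and in the fourth −0.13 for 12 members and 0.018 for all genes, on either side of 0. In the class with the highest GC content (55.3% to 73.2%) it was 0.26 for 9 members and 0.44 for all genes. When a smooth curve of GC content was subtracted in each library, the median of the members was 0.06 with 50 below 0 and 65 above 0, the median of all genes was 0.002, and 2 members, ZNF146 and ZNF514, were lower by fold and unadjusted p.

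**Figure D5:**
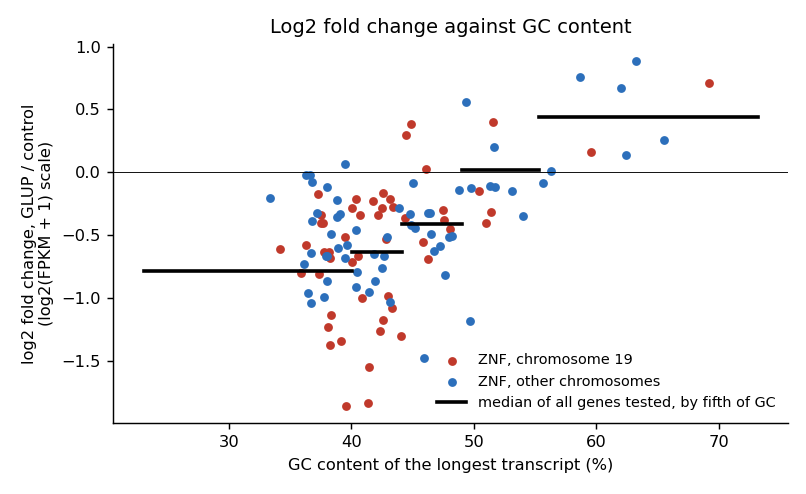
Log2 fold change (GLUP over control, log2(FPKM + 1) scale) of the 115 members against the GC content of their longest transcript in percent, coloured by chromosome, with black lines at the median of all genes tested in each of 5 classes of GC content. The lines climb from −0.78 to 0.44 and the members lie around them, with a median of −0.61 under 40% GC and 0.08 at 50% or more.

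Scaling also moved the zero point. All genes had a median of −0.36, which became −0.01 after centring each library on its median and −0.09 after quantile normalization. The members' median then was −0.10 (67 below 0 and 48 above) and −0.19 (80 and 35). The members lower and higher by fold and unadjusted p numbered 4 and 4 after centring, and 5 and 1 after quantile normalization. Over all genes the split of lower and higher calls was 14.5% and 4.67% as deposited, 5.64% and 10.5% after centring, and 6.40% and 8.87% after quantile normalization. ZNF146, ZNF514, ZNF585A and ZNF682 were among the lower members under each of these scalings.

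The proteins through which KRAB zinc fingers act had fold changes of both signs. Of 22 listed genes of the TRIM28 silencing machinery, including the NuRD complex, 16 were tested, and their median log2 fold change was −0.38. The median over all genes tested was −0.36. By fold and unadjusted p, 3 were lower and 2 higher, where 14.5% and 4.67% of all genes were. None had an adjusted p under 0.05. TRIM28 itself, the corepressor that KRAB domains bind, had 3.25 and 2.41 FPKM in control against 10.1 and 5.18 with GLUP (log2 fold change 1.12, limma adjusted p = 0.123). DNMT1, the maintenance DNA methyltransferase, had 42.7 and 33.5 FPKM in control against 162 and 134 with GLUP (log2 fold change 1.93). The GLUP libraries were above both controls in either gene, whose transcripts have GC contents of 64.2% and 55.2%.

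Among the 3 lower genes of the list were CBX5 and ATF7IP. CBX5, which encodes the heterochromatin protein HP1α, had 110 and 142 FPKM in control against 39.0 and 56.9 with GLUP. ATF7IP, a cofactor of SETDB1, had 4.12 and 8.69 FPKM in control against 2.75 and 2.30 with GLUP. The log2 fold change of CBX5 was −1.39, ATF7IP was just past the 2-fold limit, and in both genes both GLUP libraries were below both controls. SETDB1, the histone methyltransferase of the complex, had 1.66 and 2.41 FPKM in control against 1.23 and 1.08 with GLUP (−0.48). HDAC1, HDAC2, CHD4, RBBP4, RBBP7, CBX1, CBX3, SUMO2 and SUMO3 were tested too and did not pass the fold and unadjusted p.

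Of 4 genes listed for the HUSH complex, which silences retroelements with ZNF638 among its partners, 3 were tested and all were lower in both GLUP libraries. Over all genes tested, 49.7% had both GLUP libraries below both controls. TASOR had 3.12 and 14.0 FPKM in control against 1.31 and 1.07 with GLUP, MPHOSPH8 had 11.9 and 25.3 in control against 6.01 and 8.39 with GLUP, and PPHLN1 had 20.4 and 20.5 in control against 13.3 and 12.1 with GLUP. Their log2 fold changes were −1.85, −1.19 and −0.64. TASOR and MPHOSPH8 were highest in control replicate 2, as many ZNF genes were.

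Of zinc finger families with other names, few genes reached 1 FPKM. Genes tested numbered 7 of 21 listed ZSCAN genes, whose SCAN domain pairs proteins with each other, 2 of 41 ZBTB genes, 1 of 19 ZFP genes and 1 of 7 ZKSCAN genes. The ZSCAN genes had a median log2 fold change of −0.75, with 5 of 7 below 0, where 66.7% of all genes tested were below 0. ZFP62 was at −0.48 and ZKSCAN1 at 0.37, and the ZBTB genes were at 0.18 and 0.02.

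Since GLUP is built from a stretch that binds TEAD4, promoters (250 bases before to 50 after each start, RefSeq, GRCh38.p14) were searched on both strands for the TEAD core CATTCC, or GGAATG on the other strand. Of the members, 99 matched a listed promoter. The core was in 16 of them (16.2%), 6 of 45 on chromosome 19 (13.3%) and 10 of 54 elsewhere (18.5%), against 4567 of 27305 genes (16.7%). The 16 members with a match had a median log2 fold change of −0.51, and the 83 without −0.42. A match is a run of letters, and binding was not measured here.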

How the data were processed

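RNA-seq libraries of HGC-27 cells, 2 with GLUP and 2 control, were grouped by their labels. The authors deposited FPKM values, 1 row per gene, made on the Majorbio cloud platform. The submitters' processing notes name HISAT2, Cufflinks, RSEM and GRCh38.p10, with versions and roles not given in the sources used here. The row IDs have the form of GENCODE genes lifted to GRCh37, so names, positions, coding sequences and GC content (longest transcript) were taken from that annotation, which may differ from the one the authors used. The 62492 rows were summed to 62443 genes, and 99.5% of IDs matched a gene.

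Values were used as deposited. A mean of 1 FPKM or more over the libraries was required, and the 7588 genes above it were fitted with limma 3.58.1 in R 4.3.3 on log2(FPKM + 1), with a mean-variance trend and two-sided Benjamini-Hochberg adjusted p-values. The fit was tested on simulated data. Members and lists were chosen with earlier results of these data known, so no test was made over a list. P-values measure the spread between libraries that the methods call biological replicates and the labels give only by number. Exact zeros filled 41100 to 41787 genes per library, and no ZNF member was at 0 in a library.

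Named genes were the 8 members with the highest mean, those with the lowest (8, and 5 on chromosome 19) and highest (up to 6, of which 5 were found, and 3) log2 fold change among members whose groups did not overlap, a list of roles, the 3 genes on either side of the minimum, the tested TRIM28 genes, of which some are counted but not reported singly here, and overlapping neighbours. Other settings tried were centring on library medians, quantile normalization, a pseudocount of 0.1, no minimum besides a value above 0, a minimum mean of 5 FPKM, a fold of 1.5, no variance trend, the replicate number as a block, a GC correction (lowess, span 0.3, for 7570 genes, alone and with the block) and leaving out each library.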

Additional observations from a re-analysis of the deposited data

How the results depend on the processing

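The 14 lower members (12.2%, against 14.5% of all genes) became 24 with a pseudocount of 0.1 (20.9%, against 22.0%), 30 at a fold of 1.5 (26.1%, against 25.3%), 5 of 13 at a mean of at least 5 FPKM (38.5%, against 20.8%), 4 after centring (3.48%, against 5.64%), 5 after quantile normalization (4.35%, against 6.40%), 2 after the GC correction (1.74%, against 4.56%) and 3 with the GC correction and the replicate block (2.61%, against 5.36%). Leaving out each library gave 7 (without GLUP replicate 1) to 25 (without control replicate 1). The 0 higher members by limma (1 at an unadjusted p under 0.05 of any size, ZNF358) became 1 with a pseudocount of 0.1, 1 at a fold of 1.5, 4 after centring and 1 after quantile normalization, and 0 to 4 when each library was left out, 4 being without control replicate 1.

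Over all genes, the 2 called by limma at an adjusted p under 0.05 became 1 with a pseudocount of 0.1, after centring and after quantile normalization, 16 with the GC correction and the replicate block, and 4 to 2710 when each library was left out. They became 0 with all genes above 0, with a minimum mean of 5 FPKM, with no variance trend and after the GC correction, where 1293, 890, 1461 and 700 genes passed the fold and an unadjusted p under 0.05.

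The members' median relative to all genes, −0.09, was −0.42 with all genes above 0, −0.52 over the 13 members of at least 5 FPKM, 0.054 after the GC correction, with or without the replicate block, and −0.14 to −0.06 when each library was left out. With all genes above 0, the background has 28873 genes. Chromosome 19 minus other members, −0.06, was −1.35 at a mean of at least 5 FPKM, where 4 of the 13 members lie on chromosome 19, and −0.24 to −0.022 when each library was left out, −0.24 being without control replicate 1.

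Some named genes with small differences changed sign. After centring, ZNF207 was at 0.26, ZNF24 at 0.020, ZNF263 at 0.23, ZNF274 at 0.026, ZNF622 at 0.19, ZNF689 at 0.26 and ZNF770 at 0.32. After quantile normalization, ZNF207 was at 0.31, ZNF263 at 0.077, ZNF622 at 0.22, ZNF689 at 0.11 and ZNF770 at 0.12. After the GC correction, with or without the replicate block, ZNF207 was at 0.73, ZNF24 at 0.48, ZNF281 at 0.0029, ZNF638 at 0.053 and ZNF770 at 0.81. When each library was left out, ZNF207 lay between −0.40 and 0.24, ZNF622 between −0.40 and 0.10 and ZNF770 between −0.21 and 0.17, all highest without control replicate 1. ZNF263 lay between −0.33 and 0.11 (highest without GLUP replicate 2), and ZNF595 between −0.18 and 0.31 (lowest without control replicate 2). Over all settings, 227 values of single genes kept direction and side of the unadjusted threshold, 37 were no longer past it, 18 came to be past it, and 28 changed sign. Beyond the construction of each setting, the cause was not tested.

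The replicate numbers are shared by both groups, and the deviations of same-numbered libraries correlated at 0.13 over 7588 genes. With the replicate block, 14 members were lower, 0 higher, and 2 genes were called over all. The libraries have FPKM only, so no counting error or detection limit can be given, and 2 libraries per group limit every comparison.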
